A study of Homo sapiens with 5 samples.

Results

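The genes described here are the 7 FOS and JUN subunits of the transcription factor AP-1 (FOS, FOSB, FOSL1, FOSL2, JUN, JUNB and JUND) and 3 further early response factors, EGR1, IER2 and NR4A1. They were taken by exact row name, and all 10 were found among 43714 gene rows. The cells were Rh41, an established line of fusion-positive alveolar rhabdomyosarcoma, a tumour whose cells carry a partial skeletal muscle programme. Lipofectamine RNAiMAX carried an siRNA against H3F3A into the cells of 3 libraries (replicates 1, 2 and 3) and a scrambled siRNA into those of 2 libraries (replicates 1 and 3), and poly-A RNA was sequenced 48 hours later. Both groups were grown in RPMI with serum, no stimulus is named in the labels, and nothing says whether the replicates were separate cultures, so p-values reflect library-to-library spread that may be technical. Whether 1 siRNA or a pool was used is not stated.

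H3F3A is a gene for the histone variant H3.3, which is put into nucleosomes outside DNA replication, much of it at genes being transcribed. Early response genes are switched on within minutes of a growth or stress signal by factors already present in the cell, such as serum response factor with its ETS partners and CREB, and most of their transcripts are short-lived. FOS proteins bind DNA only as dimers with another family, above all JUN proteins, whereas JUN proteins also pair with each other. The comparison asks which of these transcripts fell when the H3F3A transcript was removed.

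The start regions of these genes are shown first because such regions can carry sites through which early response genes are induced. RefSeq start windows of build GRCh38.p14 were matched by symbol for 9 of the 10 genes, all but FOSL1, and NR4A1 had 2 starts. The 250 bases before each start were searched on both strands for the CArG box bound by serum response factor, the AP-1 site (TGACTCA or TGAGTCA), the cAMP response element bound by CREB (TGACGTCA) and TATAAA. Capitals mark these matches, and no marked matches overlap. The windows of EGR1, JUND and NR4A1 are printed because they hold the CArG boxes, the response element and the starts of a gene that fell.
EGR1, chr5:138465229-138465478, plus strand: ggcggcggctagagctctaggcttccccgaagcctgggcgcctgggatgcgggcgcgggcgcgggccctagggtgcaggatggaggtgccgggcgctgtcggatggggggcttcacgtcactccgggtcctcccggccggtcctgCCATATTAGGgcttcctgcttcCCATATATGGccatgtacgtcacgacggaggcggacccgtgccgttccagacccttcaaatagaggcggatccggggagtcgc
JUND, chr19:18281623-18281872, minus strand: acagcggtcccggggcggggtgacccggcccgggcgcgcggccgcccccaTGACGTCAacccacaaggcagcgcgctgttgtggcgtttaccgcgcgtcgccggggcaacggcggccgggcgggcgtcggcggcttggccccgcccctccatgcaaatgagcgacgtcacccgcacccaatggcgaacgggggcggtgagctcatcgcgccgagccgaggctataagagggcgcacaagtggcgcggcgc
NR4A1, upstream start, chr12:52022582-52022831, plus strand: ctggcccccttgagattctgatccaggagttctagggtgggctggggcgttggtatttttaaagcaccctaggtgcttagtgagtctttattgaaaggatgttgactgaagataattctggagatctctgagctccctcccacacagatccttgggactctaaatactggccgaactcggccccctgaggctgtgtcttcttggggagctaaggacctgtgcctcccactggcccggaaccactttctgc
NR4A1, downstream start, chr12:52037465-52037714, plus strand: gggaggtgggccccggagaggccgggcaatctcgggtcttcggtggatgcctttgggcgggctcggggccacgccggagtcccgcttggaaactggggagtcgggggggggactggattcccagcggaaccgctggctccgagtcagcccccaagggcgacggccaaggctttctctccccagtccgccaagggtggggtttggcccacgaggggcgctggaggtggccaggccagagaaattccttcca

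EGR1 alone among the 9 genes had a CArG box, with 2 of them that begin 105 and 83 bases before its start, and 1.16% of 35116 windows of this length held at least 1. JUND alone had the full response element, 200 bases before its start, against 1.65% of all windows. TATAAA stood 33, 30 and 31 bases before the starts of FOS, FOSB and JUNB and in 10.7% of all windows. The AP-1 site was in none of the 9 genes' windows and in 4.2% of all. Neither NR4A1 window held any of these letters, so neither has capitals. Sites outside these windows and other forms of the sites were not searched, so a gene without a match here may still have such a site. These matches describe the letters of these windows and say nothing about binding in Rh41 cells.

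The labels were checked first on the targeted gene. H3F3A, whose row is named H3-3A, had 9.38, 10.5 and 8.54 CPM (reads as a share of all reads assigned in the library, in the usual unit, with TMM scaling) in H3F3A siRNA libraries and 294 and 269 CPM in scrambled libraries, so 3.36% of the level was left. H3F3B, which encodes the same protein, averaged 819 ± 28.0 CPM after H3F3A siRNA (SD, n = 3) and 821 ± 25.6 CPM in scrambled libraries (SD, n = 2). Protein was not measured. Each library had 28493573 to 30705963 counts assigned to genes. All 9 rhabdomyosarcoma markers had more than 10 counts in every library, with MYOD1 at 1057 to 1487 CPM, but their summed level also moved with the groups, at 3670 to 3746 CPM after H3F3A siRNA and 4214 to 5115 CPM in scrambled libraries, and the part of this in the results was not tested. In bulk RNA, fewer cells of a type and less RNA per cell cannot be told apart. The marker sums of epithelium and endothelium were 0.938 to 1.54 and 2.10 to 2.51 CPM after H3F3A siRNA, against 1.18 to 1.44 and 2.43 to 2.93 CPM in scrambled libraries, and the immune sum was 4.17 to 4.75 against 4.04 to 4.59 CPM. The epithelial markers EPCAM and CDH1 and the immune marker PTPRC were each at 0 in at least 1 library and never above 0.103 CPM. The most abundant markers of these lists had reads in every library. They were KRT8 (epithelium, 0.808 to 1.30 CPM), VWF (endothelium, 1.33 to 1.92 CPM) and CD68 (immune, 3.50 to 3.94 CPM). The fibroblast markers DCN and LUM stayed under 0.436 CPM, while PDGFRB was at 33.4 to 44.4 CPM and COL1A1 at 28.65 to 44.3 CPM. The sum of that list, 1232 to 1291 against 1212 to 1332 CPM, came mostly from COL3A1.

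One library, scrambled replicate 1, was set off by base composition. Its log2 CPM, centred gene by gene, rose by 0.143 per 10 points of transcript GC content. This slope was -0.059, -0.0385 and -0.04 in H3F3A siRNA libraries and -0.0059 in scrambled replicate 3. Each gene was centred on its mean over all 5 libraries, so the slopes are relative and cancel when summed. A high slope in 1 library thus lowers those of the others. All 10 genes here lie above the middle of the GC range, at 52.6% (FOS) to 69.7% (JUND). The log2 fold change of each of the 10 genes is therefore also given after the GC trend of each library was removed, called GC correction. CPM values, ratios between genes, sums over genes and nearest patterns carry no such correction.

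FOSL1 and NR4A1 were called lower after H3F3A siRNA, and no gene of the set was called higher. A gene was called when its adjusted p across all 15859 tested genes was under 0.05 (edgeR quasi-likelihood test). All 10 genes passed the filter on low counts. The 2 calls compare with 2.69% of all tested genes called lower and 0.504% called higher. In 7 of the 10 genes every H3F3A siRNA library lay below both scrambled libraries, which was so for 17.1% of all genes tested, and in none did every H3F3A siRNA library lie above, against 16.0% of all genes. The log2 fold change was below 0 in 9 of the 10 genes and in 48.6% of all genes, and 5 of the 10 were lower at an unadjusted p under 0.05, against 10.9%. The median log2 fold change was -0.23 over the 10 genes and 0.01 over all genes. With GC correction FOSL1 alone was called lower, against 1.25% of all genes, and none was called higher, against 0.517%. The number of the 10 genes below 0 was then 7, against 48.4% of all genes, and the median was -0.09.

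**Figure D1:**
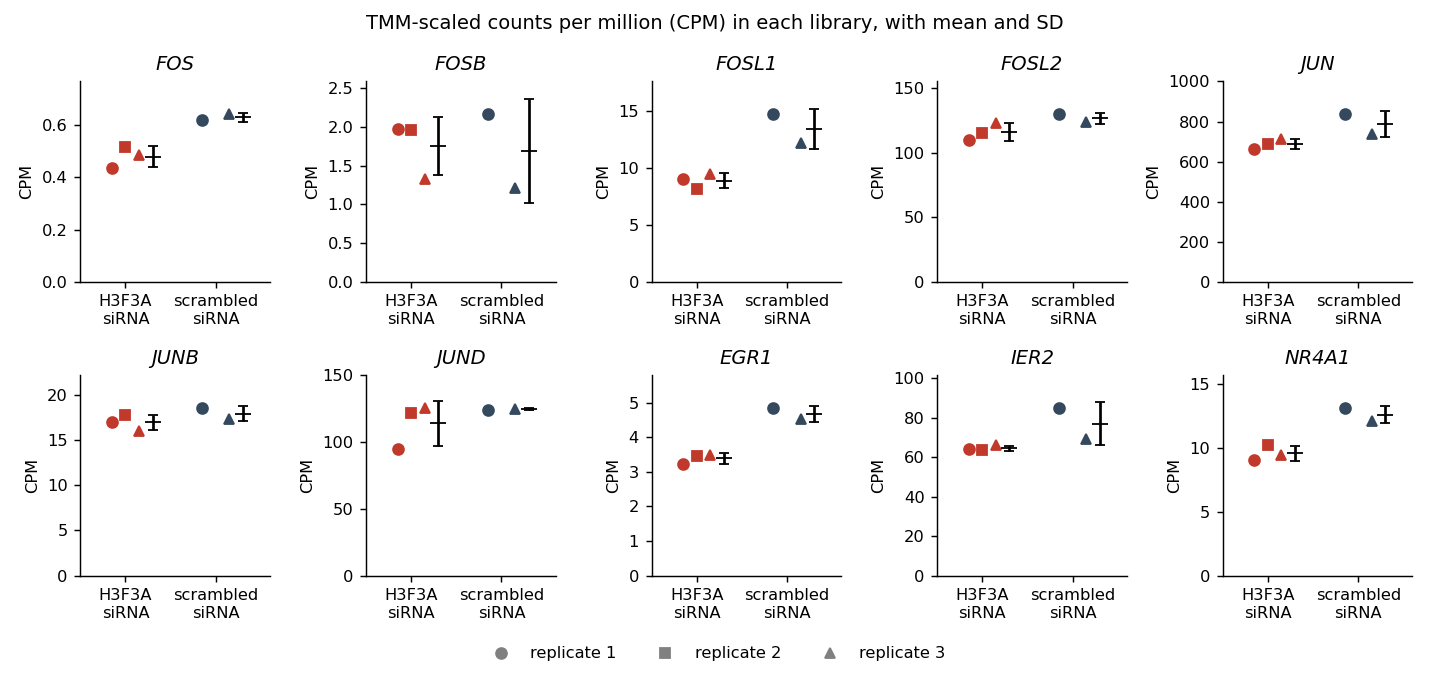
TMM-scaled CPM of the 10 genes in each library (points, shape by replicate number), with the mean and SD of each group beside the points; each panel has its own linear axis from 0. For FOSL1, the H3F3A siRNA libraries lie at 8.17 to 9.48 CPM and the scrambled libraries at 12.2 and 14.7 CPM; the groups overlap for FOSB, JUNB and JUND.

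Among the 4 FOS subunits, FOSL1 had the largest change in log2 fold change. FOSL1 encodes FRA-1, an AP-1 subunit best known for its part in the motility and invasion of tumour cells. Its level was 9.05, 8.17 and 9.48 CPM in H3F3A siRNA libraries, against 14.7 and 12.2 CPM in scrambled libraries, from 237 to 293 and 363 to 429 raw counts. The groups did not overlap, and scrambled replicate 1 was the highest library. The means were 8.90 ± 0.669 CPM (SD, n = 3) and 13.5 ± 1.76 CPM (SD, n = 2), a log2 fold change of -0.60 (SE 0.114, 95% interval -0.83 to -0.36, adjusted p = 0.0055). FOSL1 was thus 1.51-fold lower and kept 66.1% of its scrambled level. By size of fall it ranked 45 among all 427 genes called lower, and 18 among the 389 of them whose mean reached 8 CPM. With GC correction its log2 fold change was -0.45 (95% interval -0.65 to -0.25, adjusted p = 0.0225).

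FOSL2, which encodes the related subunit FRA-2, was about an order of magnitude more abundant in reads and passed no test. Its level was 109, 115 and 123 CPM after H3F3A siRNA and 129 and 123 CPM in scrambled libraries. H3F3A siRNA replicate 3 lay within 1 CPM of scrambled replicate 3. The log2 fold change was -0.13, with a 95% interval of -0.29 to 0.03 (adjusted p = 0.427), which takes in no change and a fall of that size. GC correction left it at -0.08 (95% interval -0.20 to 0.04).

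FOS and FOSB, the subunits most tightly bound to acute stimulation, were close to the limit of detection. FOS had 13, 15 and 15 reads in H3F3A siRNA libraries and 18 and 19 reads in scrambled libraries. The counts did not overlap, but the interval of the log2 fold change ran from -1.13 to 0.35 (adjusted p = 0.628), so a change of moderate size was not detectable at this depth. After GC correction FOS stood at -0.35 (95% interval -1.08 to 0.37). FOSB had 59, 57 and 41 reads after H3F3A siRNA and 63 and 36 reads in scrambled libraries. The 2 scrambled libraries bracketed the others, and the log2 fold change was 0.06 (95% interval -0.48 to 0.59, adjusted p = 0.942), or 0.17 after GC correction (95% interval -0.36 to 0.70).

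The ratio of FOSL1 to its relatives was compared within each library, where scaling between libraries has no effect. A GC trend of a library does not cancel in such a ratio where the genes differ in GC content. FOSL1 has 60.0% GC and FOSL2 53.3%, and these ratios are not corrected for it. FOSL1 reads were 0.0827, 0.0711 and 0.0771 per FOSL2 read in H3F3A siRNA libraries, against 0.114 and 0.0991 in scrambled libraries. The groups did not overlap, and the log2 ratio differed by -0.47 (exact permutation test over libraries, 2-sided, p = 0.1). With 10 possible splits of 3 and 2 libraries, 0.1 is the smallest p this design allows. The log2 ratio to FOSB differed by -0.69 (exact permutation p = 0.3) and that to FOS by -0.20 (exact permutation p = 0.5), in both cases with groups that overlapped. Since no p under 0.1 is possible, these 3 unadjusted tests cannot settle whether FOSL1 fell more than its relatives.

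None of the 3 JUN subunits was called. JUN, the most abundant gene of the set and the prototype partner of FOS, had 662, 688 and 711 CPM after H3F3A siRNA, against 835 and 740.2 CPM in scrambled libraries. All 3 H3F3A siRNA libraries were the lower ones, and the log2 fold change was -0.20 (95% interval -0.36 to -0.04), with an unadjusted p = 0.0192 and an adjusted p = 0.186. With GC correction it was -0.11 (95% interval -0.22 to 0.01, adjusted p = 0.439).

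JUNB and JUND, the paralogues that in many settings restrain growth driven by JUN, differed in sign before and after GC correction, and neither was called. JUNB had 17.05, 17.8 and 16.05 CPM in H3F3A siRNA libraries and 18.5 and 17.3 CPM in scrambled libraries, with overlapping groups. JUND had 94.7, 122 and 125 CPM after H3F3A siRNA and 124 and 125 CPM in scrambled libraries, so that H3F3A siRNA replicate 1 alone stood low. Their log2 fold changes were -0.08 (95% interval -0.28 to 0.12) for JUNB and -0.13 (95% interval -0.33 to 0.07) for JUND, with adjusted p of 0.728 and 0.534. Their transcripts have the highest GC content of the set, 64.9% and 69.7%, and with GC correction the values were 0.15 and 0.17, with intervals that still held 0 (-0.03 to 0.33 and -0.18 to 0.52). Without H3F3A siRNA replicate 1 the uncorrected value of JUND was -0.008. With GC correction and without that library it was 0.27 (95% interval 0.05 to 0.48, adjusted p = 0.227).

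**Figure D2:**
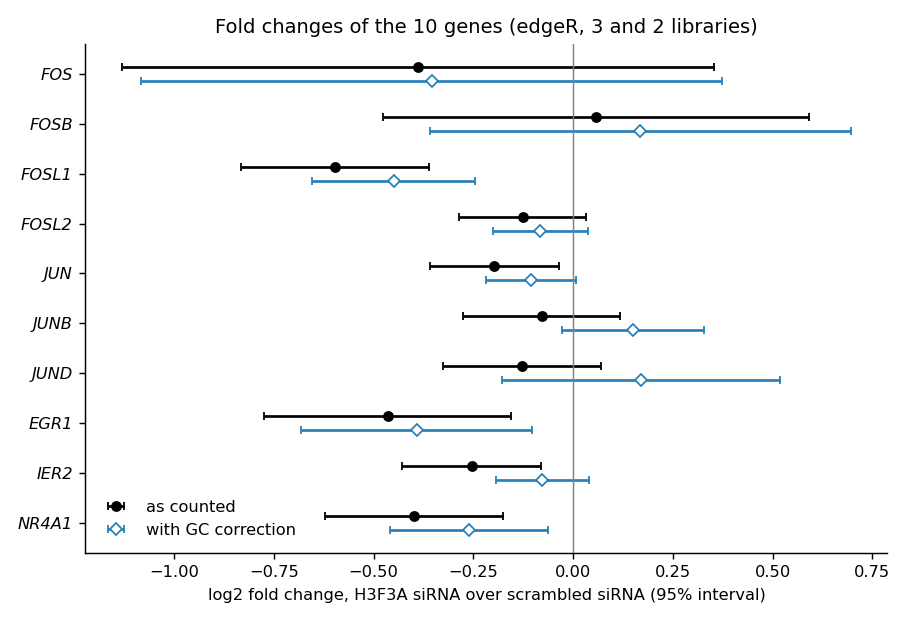
Log2 fold change of each gene, H3F3A siRNA (3 libraries) over scrambled siRNA (2 libraries), with 95% intervals, as counted (filled circles) and with GC correction (open diamonds). The intervals of FOSL1, EGR1 and NR4A1 lie below 0 both ways, and those of JUNB and JUND cross 0 both ways.

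NR4A1, an orphan nuclear receptor also known as NUR77, was the other gene of the set that was called lower. It stood at 9.08, 10.2 and 9.42 CPM in H3F3A siRNA libraries, against 13.1 and 12.1 CPM in scrambled libraries. The groups did not overlap, and the means of 9.57 ± 0.575 CPM (SD, n = 3) and 12.6 ± 0.689 CPM (SD, n = 2) differed 1.32-fold (log2 fold change -0.40, SE 0.107, 95% interval -0.62 to -0.18, adjusted p = 0.0428). This lies just inside the threshold. GC correction moved the log2 fold change to -0.26 (95% interval -0.46 to -0.06) and the call was lost (adjusted p = 0.203).

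The NR4A1 row leaves out reads that overlap the antisense gene NR4A1AS. Counted without regard to strand it held 271, 296 and 291 reads after H3F3A siRNA and 382 and 360 in scrambled libraries, while its 2 stranded columns summed to 334, 380 and 359 reads and to 476 and 444 reads. The unstranded row thus kept 77.9% to 81.1% of them, whereas for each of the other 9 genes it kept at least 98.4%. NR4A1AS itself had 0 reads in the unstranded column of every library, but 62, 83 and 66 reads after H3F3A siRNA and 94 and 84 in scrambled libraries in the stranded columns, at most 2 fewer than NR4A1 lost. The kit does not mark strand, so which gene these shared reads came from cannot be told apart. With stranded columns summed, an alternative added after seeing the data, the log2 fold change of NR4A1 was -0.37 and its adjusted p rounded to 0.05, just inside the threshold.

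EGR1 and IER2 were lower in every H3F3A siRNA library but were not called. EGR1, a zinc finger factor and a classic target of serum response factor, whose CArG boxes are printed above, had 3.22, 3.45 and 3.49 CPM after H3F3A siRNA, against 4.83 and 4.51 CPM in scrambled libraries. It rests on 96 to 108 reads after H3F3A siRNA and 134 to 141 reads in scrambled libraries. The groups did not overlap, and the log2 fold change was -0.46 (95% interval -0.77 to -0.15), the largest after FOSL1, with an unadjusted p = 0.00507 and an adjusted p = 0.0927. With GC correction it was -0.39 (95% interval -0.68 to -0.10, adjusted p = 0.185). Both falls were larger than those of NR4A1, at -0.40 and -0.26, although only NR4A1 of these 2 genes was called as counted.

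IER2, a small nuclear protein induced by growth factors, had 63.9, 63.6 and 66.0 CPM in H3F3A siRNA libraries, against 84.7 and 69.2 CPM in scrambled libraries. Scrambled replicate 3 lay much nearer to the H3F3A siRNA libraries than scrambled replicate 1 did. The log2 fold change was -0.25 (95% interval -0.43 to -0.08, adjusted p = 0.102), and -0.08 with GC correction (95% interval -0.19 to 0.04).

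**Figure D3:**
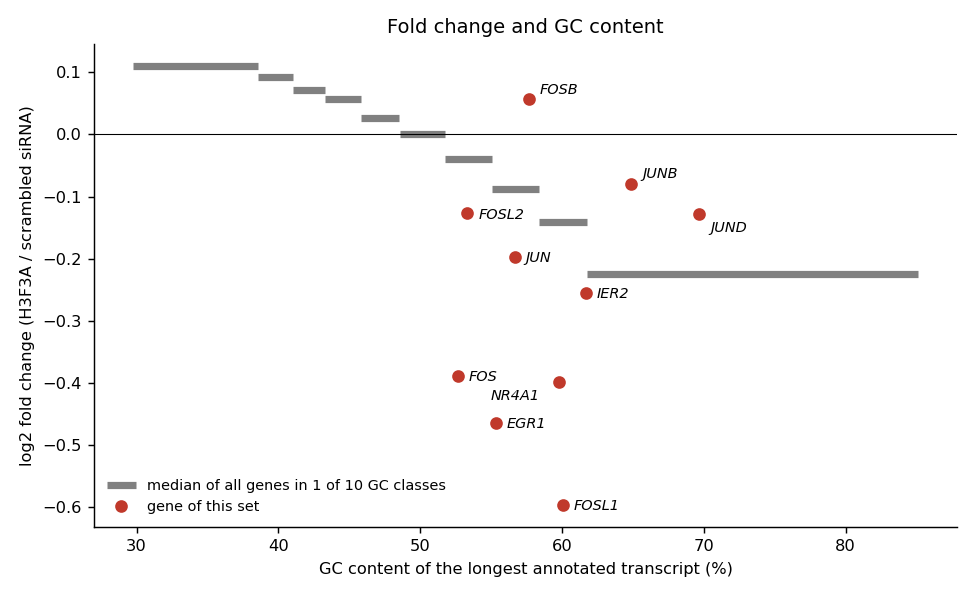
Log2 fold change against the GC content of the longest annotated transcript (%) for the 10 genes (points), over the median of all tested genes in each of 10 GC classes (grey bars). The class medians run from 0.11 in the lowest class to -0.22 in the highest; FOSL1, EGR1, NR4A1 and FOS lie well under their class medians, and JUNB, JUND and FOSB above theirs.

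The medians of all genes by GC class give the background for these values. Across 10 classes of near-equal size the median log2 fold change went from 0.11 in the lowest GC class to -0.22 in the highest. FOSL1, NR4A1 and IER2 belong to the ninth class, whose median was -0.14, FOSB, JUN and EGR1 to the eighth, at -0.09, and FOS and FOSL2 to the seventh, at -0.04. FOSL1 lay far below its class median, and IER2 closer to it. JUNB and JUND, in the top class, lay above its median.

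Both calls depended on which libraries were included. Where 1 scrambled library remained, it was assumed to vary like the H3F3A siRNA libraries. Without H3F3A siRNA replicate 1 none of the 10 genes was called lower, against 0.0575% of all genes, without replicate 2 it was FOSL1 alone (0.977%), and without replicate 3 FOSL1 alone (1.62%). Without scrambled replicate 1 none was called (0.501% of all genes), and without scrambled replicate 3 FOSL1, JUN, IER2 and NR4A1 were (10.6% of all genes). The adjusted p of FOSL1 was 0.124 without scrambled replicate 1 and 0.1 without H3F3A siRNA replicate 1, at log2 fold changes of -0.46 and -0.61. NR4A1 was called in 1 of these 5 fits, with log2 fold changes from -0.45 to -0.35. IER2 ranged from -0.39 without scrambled replicate 3 to -0.10 without scrambled replicate 1, and JUN from -0.28 to -0.11.

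**Figure D4:**
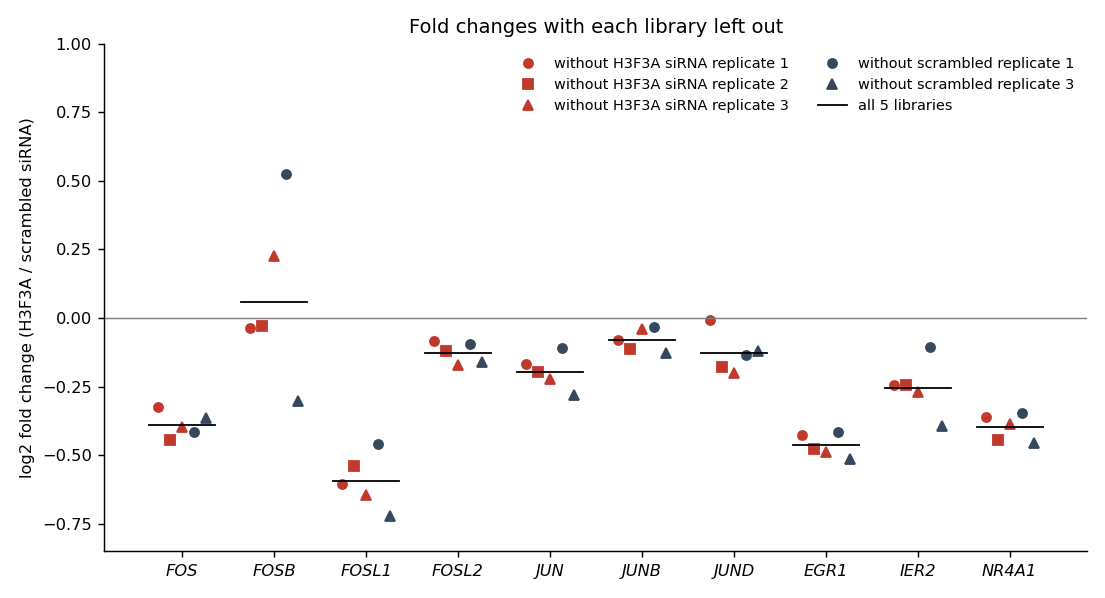
Log2 fold change of each gene with each library left out in turn (points, colour by group and shape by replicate number) and with all 5 libraries (lines). FOSL1 ranges from -0.72 to -0.46 and EGR1 from -0.51 to -0.42, while FOSB ranges from -0.30 to 0.53.

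The level of each transcript per length was highest for JUN in both groups. Per kilobase of the longest annotated transcript, JUN had 194 ± 6.91 CPM in H3F3A siRNA libraries (SD, n = 3) and 223 ± 19.0 CPM in scrambled libraries (SD, n = 2). JUND followed with 61.2 ± 8.98 and 66.8 ± 0.378 CPM per kilobase, then IER2 with 22.0 ± 0.448 and 26.2 ± 3.73, and FOSL2 with 17.3 ± 1.02 and 18.8 ± 0.640. JUNB had 9.32 ± 0.478 CPM per kilobase after H3F3A siRNA and 9.84 ± 0.468 in scrambled libraries, and FOSL1 5.33 ± 0.401 and 8.07 ± 1.05. NR4A1 had 1.98 ± 0.119 and 2.61 ± 0.142 CPM per kilobase, and EGR1 1.08 ± 0.0473 and 1.49 ± 0.0725. FOSB, with 0.465 ± 0.0985 and 0.447 ± 0.178, and FOS, with 0.222 ± 0.0190 and 0.291 ± 0.00744, came last. This order was the same in both groups, and within a group no gene's libraries overlapped those of the next gene. The order also held with the union of annotated exons as the length.

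**Figure D5:**
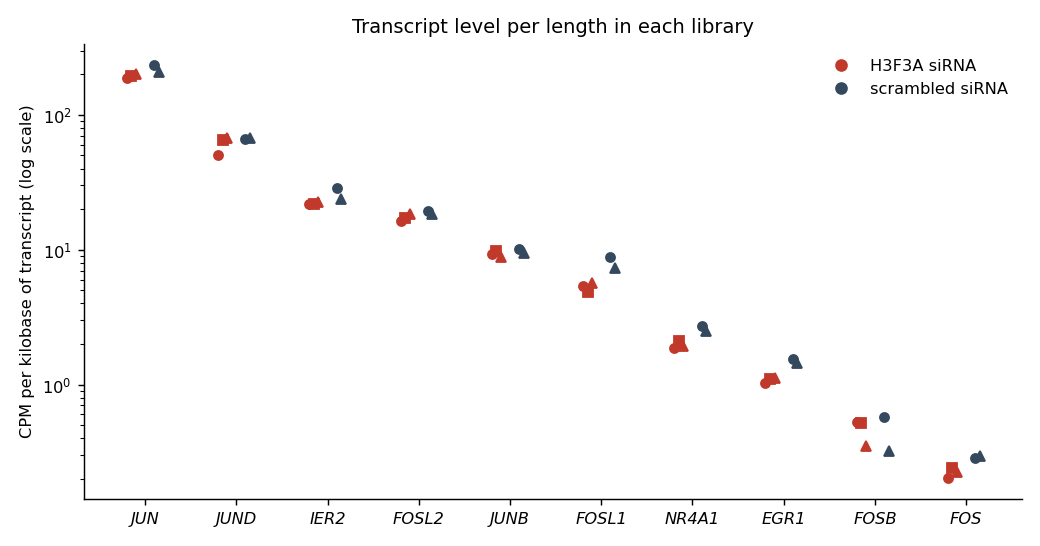
TMM-scaled CPM per kilobase of the longest annotated transcript (log axis) for the 10 genes in each library, ordered by the scrambled mean. The levels span from above 187 for JUN to below 0.297 for FOS, and the order is the same in both groups.

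JUN made up most of the AP-1 transcript pool. The 7 subunits summed to 270, 292 and 301 CPM per kilobase in H3F3A siRNA libraries, against 342 and 312 in scrambled libraries, and the groups did not overlap (exact permutation test, 2-sided, p = 0.1, the smallest possible). These sums are not corrected for GC content, and JUN and JUND, which make up most of them, had log2 fold changes of -0.11 and 0.17 with that correction, against -0.20 and -0.13 without it. JUN supplied 67.5 ± 1.62% of this sum after H3F3A siRNA (SD, n = 3) and 68.0 ± 1.45% in scrambled libraries (SD, n = 2), and the 4 FOS subunits 8.09 ± 0.271% and 8.46 ± 0.0283%. The exact permutation p was 0.6 for the JUN share and 0.2 for the share of the FOS subunits. Within the FOS subunits, FOSL1 supplied 24.1%, 21.5% and 23.1% in H3F3A siRNA libraries and 30.4% and 27.8% in scrambled libraries. These shares did not overlap either (exact permutation p = 0.1). The 7 measures of the pool were tested as 1 family without adjustment, since none could pass.

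The 4 gene lists that follow were chosen with earlier results of these data known. Their shares beside those of all genes are therefore descriptive only. Of the other early response genes listed with these 10, CCN1, IER5L, CSRNP1 and ZFP36L2 were called lower. They are 4 of 38 tested genes, against 2.69% of all genes called lower, and none was called higher, against 0.504%. Below 0 lay 28 of the 38, against 48.6% of all genes, and the list median was -0.12, beside 0.01 over all genes. After GC correction 2 were called lower, against 1.25%, 23 lay below 0, against 48.4%, and the median was -0.08. CCN1, a secreted matricellular protein, stood at 77.3 ± 3.06 CPM after H3F3A siRNA and 103 ± 1.48 CPM in scrambled libraries (log2 fold change -0.42, edgeR adjusted p = 0.00347). IER5L, a relative of the early response gene IER5, fell by 0.53 on the log2 scale (adjusted p = 0.00557), the nuclear factor CSRNP1 by 0.38 (adjusted p = 0.0312), and ZFP36L2, which speeds the decay of mRNAs with AU-rich elements, by 0.29 (adjusted p = 0.0437). With GC correction CCN1 kept its value, at -0.41 (adjusted p = 0.000558), IER5L moved to -0.31 (adjusted p = 0.133), and CSRNP1 and ZFP36L2 were not called (adjusted p = 0.142 and 0.0552). DUSP6, a phosphatase that dampens growth factor signalling, was not called with all 5 libraries as counted (-0.27, adjusted p = 0.0699) but was with the correction, at -0.29 (adjusted p = 0.0225), and in 1 of 5 uncorrected fits with a library left out. The most abundant genes of the list, ZFP36L1 and MCL1, had log2 fold changes of -0.08 and -0.04 and were not called.

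Upstream of these genes, SRF was called lower and the other 21 tested regulators were not called. SRF encodes serum response factor, and its level was 75.6, 79.6 and 82.8 CPM in H3F3A siRNA libraries, against 100.2 and 100.5 CPM in scrambled libraries. The groups were well apart, and the log2 fold change was -0.34 (SE 0.0751, adjusted p = 0.0147). It was called in 3 of 5 fits with a library left out, with adjusted p = 0.0262 without scrambled replicate 1 and 0.16 without H3F3A siRNA replicate 1. With GC correction it was not called, at -0.18 (adjusted p = 0.179). The coactivator CREBBP, the most abundant of the list, was at -0.12 (log2 fold change without the correction) and was not called. The 1 call among 22 genes compares with 2.69% of all genes called lower, and 12 of the 22 lay below 0, against 48.6%. The list median was close to 0.

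None of 14 other possible dimer partners of AP-1 was called, which at a share of 2.69% called lower over all genes says little about a list of this size. The median was -0.13, against 0.01 over all genes, and 11 lay below 0, against 48.6%. NFE2L1 and NFE2L2, stress response factors and the most abundant of them, stood at -0.16 (adjusted p = 0.299) and 0.10 (adjusted p = 0.564) on the log2 fold change scale. With GC correction 10 lay below 0, against 48.4% of all genes, none was called, and the median was -0.11.

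Of 19 tested genes known as AP-1 targets in other systems, 6 fell, against 2.69% of all genes, and none was called higher, against 0.504%. The median was -0.24, against 0.01 over all genes, and -0.16 after GC correction. CCND1, the cyclin of the G1 phase, had 75.3, 71.8 and 79.9 CPM in H3F3A siRNA libraries, against 110.1 and 107 CPM in scrambled libraries (log2 fold change -0.52, adjusted p = 0.000839). The groups were well apart, and with GC correction the value was -0.51. TIMP1, an inhibitor of metalloproteases, fell by 0.43 on the log2 scale (adjusted p = 0.00844), the receptor kinase AXL by 0.37 (adjusted p = 0.00945), the angiogenic factor VEGFA by 0.36 (adjusted p = 0.0140), the integrin subunit ITGA5 by 0.30 (adjusted p = 0.0331) and the plasminogen activator PLAU by 0.30 (adjusted p = 0.0391). With GC correction 5 of these 6 were called, against 1.25% of all genes, and PLAU was not (adjusted p = 0.0506). FLNA, an actin cross-linker and the most abundant gene of the list, was at -0.23 (adjusted p = 0.134), and at -0.05 with GC correction. Several of these genes also answer to other factors, and whether AP-1 acts on them in Rh41 cells was not measured.

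Across these lists 11 of 93 tested genes were called with all 5 libraries, all of them lower, against 2.69% of all genes. As the lists were chosen with earlier results known, this share is descriptive only. Without H3F3A siRNA replicate 1 none of the 11 was called (0.0575% of all genes), without replicate 2 it was 3 (0.977%), and without replicate 3 it was 7 (1.62%). Without scrambled replicate 1, 5 of the 11 were called (0.501%), and without scrambled replicate 3 all 11 were (10.6%). With GC correction 6 of the 11 were called (1.25%).

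The genes whose pattern over the 5 libraries was most like that of FOSL1 were IGFBP6, SERTAD1, CTSD, POLM and S100A16. Likeness was the root mean square difference of log2 CPM after each gene was centred on its mean, over 9716 genes whose mean reached 8 CPM, and it ran from 0.0487 to 0.069 for these 5. Their own log2 fold changes lay between -0.59 and -0.48, which follows from choosing them on these same libraries. Without scrambled replicate 1 POLM stayed among the 5 nearest, which then also held ADAM12, CCND1 and ARHGEF6. For NR4A1 the nearest were LOC100129503, EEF2KMT, CHSY3, PDGFA and SLC7A5, at differences of 0.0192 to 0.04, and LOC100129503 stayed first without scrambled replicate 1.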

How the data were processed

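Poly-A RNA of 5 Rh41 libraries was analysed. The authors deposited raw read counts, 1 unstranded and 2 stranded values for each gene, arranged as STAR writes them. Per the submitters' processing notes, CASAVA, bcl2fastq, STAR 2.5, HTSeq 0.6.1, DESeq2 and the hg19 build were used, without roles. Per the labels' protocols, RNA was captured on poly-T beads and prepared with a NEBNext Ultra kit, which does not mark strand. Summary lines for reads not assigned to a gene, 4.84% to 5.48% unmapped among them, were left out of library sizes.

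The test on unstranded counts used edgeR 4.0.16 (R 4.3.3): filterByExpr (minimum count 10, minimum total 15), TMM scaling, a robust quasi-likelihood fit of group without covariates, and Benjamini-Hochberg adjustment over 15859 genes. Standard errors follow from each fold change and its F statistic. The test was run first on simulated counts without a GC trend, so that run says nothing about how the calls depend on GC content. GC content and transcript lengths came from GENCODE 29, matched by symbol for 90.7% of tested genes. GC correction subtracted a lowess trend (span 0.3) of each library's log2 CPM through offsets, with no change to genes without a value. Permutation tests over libraries were exact. Alternatives were DESeq2 1.42.0, other scalings, no filter, GC correction, a replicate block and leaving out libraries.

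The 10 genes, the 4 companion lists and the tests were chosen with earlier results of these data known. Named companion genes are those called and the 2 most abundant of each list; DUSP6 was named after its values were seen. A few genes due under this rule are not reported here. Genes not passing the filter were not tested.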

Additional observations from a re-analysis of the deposited data

How the results depend on the processing

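With the members and thresholds as reported, 2 of the 10 genes were called lower, 427 genes were called lower and 80 higher. Of the 10 genes, 1 was called lower, FOSL1, with upper-quartile scaling, by DESeq2, with GC correction, with a replicate block and GC correction together, and with GC correction without H3F3A siRNA replicate 1; none (0) was called with GC correction without scrambled replicate 1. With single libraries left out the number ran from 0 to 4. Over all genes, 199 were called lower with GC correction, 652 (381 higher) with a replicate block and GC correction, 60 (18 higher) with GC correction without scrambled replicate 1, and 273 (144 higher) with GC correction without H3F3A siRNA replicate 1. Of the 15859 tested genes, 323 were called lower with upper-quartile scaling and 478 by DESeq2. With no filter 153 were called higher. With single libraries left out, 9 to 1737 were called lower and 6 to 744 higher. FOSL1 was called lower in 13 of 16 alternatives and NR4A1 in 6; NR4A1 had an adjusted p of 0.0595 with upper-quartile scaling and 0.0623 by DESeq2. These 16 alternatives share libraries and are not separate checks. The replicate-block fits without GC correction, on all libraries and on those with a number in both groups, nearly coincide. They put FOSL1 at -0.535 and -0.5345 and NR4A1 at -0.4464 and -0.4459. DESeq2 gave no adjusted p for FOS and FOSB.

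Signs turned for 3 genes that were not called. FOSB was at -0.019 and -0.018 with a replicate block on all libraries and on those with a number in both groups, and ran from -0.30 to 0.53 with single libraries left out. JUNB was at 0.15 and JUND at 0.17 with GC correction, at 0.13 and 0.14 with the block added, at 0.063 and 0.0080 with it and without scrambled replicate 1, and at 0.13 and 0.27 with it and without H3F3A siRNA replicate 1. The cause was not tested. The direction of the other 7 genes was the same in all 16 alternatives.

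The replicate numbers were not taken as pairs: the labels do not tie equal numbers together, and only 2 are shared. Deviations of same-numbered libraries from their group means correlated across genes at 0.112 and 0.0487. With 2 scrambled libraries, their deviations are equal and opposite, so these values are not independent and cannot settle whether the numbers mark pairs. With the replicate block, in which H3F3A siRNA replicate 2 has no partner, 476 genes were called lower, and FOSL1 and NR4A1 among the 10. GC correction without H3F3A siRNA replicate 1 and the sum of stranded columns were added after seeing the data. Read counts of at most 19 limit what can be seen for FOS.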
